A study of Triticum aestivum with 10 samples.

Results

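Among the wheat transcripts measured here, 145 of 37826 array probes were higher in the leaf of a necrotic line after long cold than in 2 other leaf groups. These were the cold leaf of a wild-type line and the leaf of the same necrotic line before the cold. In the shoot the lines differed little for these probes. Members were selected on these measured levels. Each had to rise well above background in both samples of the cold necrotic leaf. It also had to be at least 4-fold higher there than in the cold wild-type leaf, and at least 4-fold higher than in the necrotic leaf at 23 °C, a log2 difference of 2 in each case. The third condition was a shoot line difference, necrotic minus wild-type, over −1.5 and under 1 on the log2 scale. The set depends on the background correction: with normexp and its offset of 50 the same limits gave 46 probes, of which 34 are members. These values chose the members, so the 2 leaf differences and the shoot line difference are given below as a description and were not tested.

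Both lines are synthetic hexaploid wheats, made anew by joining the genomes of tetraploid wheat and the goat grass Aegilops tauschii. One showed the wild-type phenotype and the other cold-induced hybrid necrosis. Each of 5 groups had 2 samples with 1 array each: necrotic leaf of plants kept for 3 weeks at 23 °C, leaf of either line with 12 more weeks at 4 °C, and shoots of either line, holding the shoot apical meristem, after the same start and 6 weeks at 4 °C. Leaf of the wild-type line before the cold was not analysed here, and each phenotype was represented by 1 line, so that line and phenotype cannot be told apart. The series text speaks of independent experiments for the 2 samples of a group, and whether these used separate plants is not stated, so that p-values measure only the spread between these samples.

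Hybrid necrosis is a form of incompatibility in which leaf tissue of a hybrid yellows and dies although both parents grow normally. In many plants it has been traced to gene combinations that set off immune signalling without a pathogen, and it is often sensitive to temperature. Long cold also hardens winter cereals and prepares the shoot apex for flowering, and many transcripts change in the course of it.

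On the 10 arrays 28487 to 32630 of the 37826 probes were well above background and no spot was saturated. The arrays lay on 3 slides, each in a scan of its own: 1 with the 2 arrays of 23 °C, 1 with the 4 cold leaf arrays and 1 with the 4 shoot arrays. The line differences in leaf and in shoot therefore lie within a slide. Any difference between 23 °C and 4 °C, or between leaf and shoot, lies between slides as well. The cold leaf also came from older plants than the leaf at 23 °C, since the weeks at 4 °C were added. What is called the temperature difference below therefore also holds plant age, slide and scan. These cannot be told apart from temperature. In whole-tissue RNA, fewer cells of a type and less RNA per cell cannot be told apart.

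No file or table used here names the gene behind a member. Of the 145 names, 0 were found in the RefSeq table of wheat genes, and 0 of the 6 probes with a gene name (Wcor15, cor47, RD29A, RD29B, DREB2A and DREB2B) was a member. Wcor15, a wheat gene for a cold-responsive protein of the chloroplast, missed by its leaf line difference of 0.68 and by its shoot line difference of −4.43, while its 4 °C minus 23 °C difference was 4.83. The gene lists for defence, cell death, sugar and photosynthesis, and those for leaf and meristem identity, could therefore not be applied. The labelled tissues could not be checked against marker genes. Members are given by the clone or contig in their names. Of the members 76 (52.4%) carry wheat0130 contig names, against 36.9% of all probes. Another 35 (24.1%) carry clone names beginning with wh or rwh, against 38.6%. A further 32 (22.1%) carry MUGEST2003 contig names, against 20.1%, and the last 2 have a single-clone name (MUG005H12R990218) and a gi number (ncbi_gi_32128798_1521).

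In the cold leaf the members were 4.03-fold to 136-fold higher in the necrotic than in the wild-type line, with a median of 8.28-fold. Among the 29648 probes well above background in the cold necrotic leaf, 2.84% reached 4-fold in that direction. The log2 difference was at least 3 for 75 members, at least 4 for 35, at least 5 for 18 and at least 6 for 7. Against 23 °C the members were 4.02-fold to 2126-fold higher, with a median of 12.3-fold when signals below background were taken as read. Of the probes well above background in the cold necrotic leaf 5.29% reached 4-fold in that direction. That difference was at least 3 for 95 members, at least 5 for 31 and at least 6 for 16. In all 145 members the cold necrotic arrays both exceeded the cold wild-type arrays, which the rule all but requires.

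**Figure D1:**
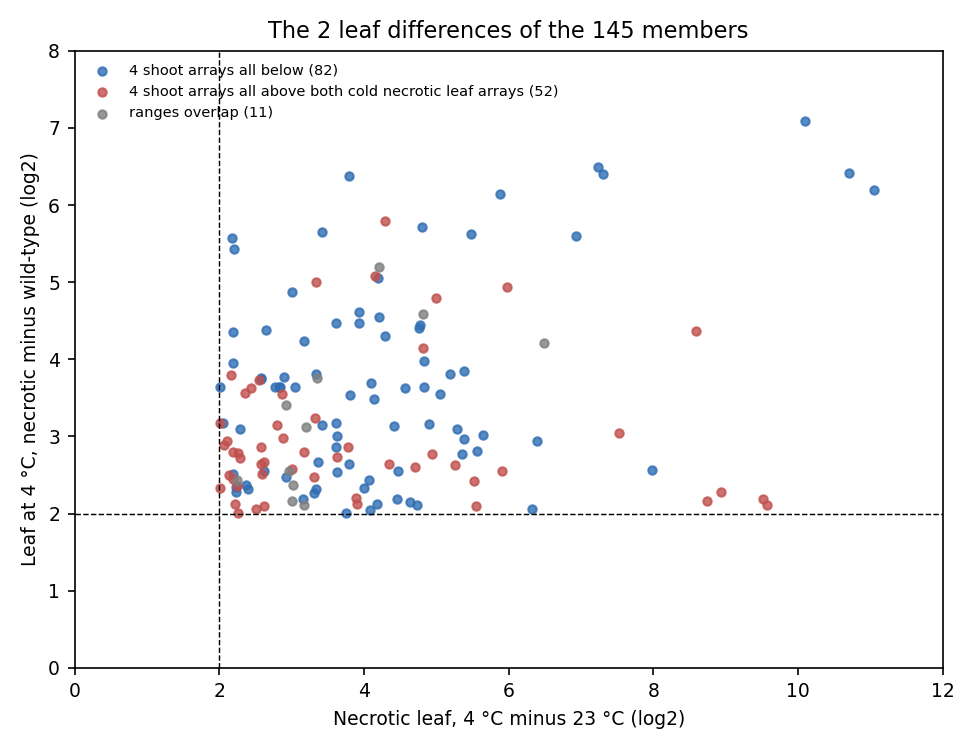
Each point is a member, with the difference of the necrotic leaf between 4 °C and 23 °C on the x axis and the difference of the lines in cold leaf on the y axis, both in log2 units; dashed lines mark the threshold of 2 and colours give the place of the shoot arrays. The 3 members past 10 on the x axis have line differences over 6 and shoot arrays below the cold necrotic leaf (blue).

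A level is the log2 signal of a probe minus the 75th percentile of its array. The lowest level that was well above background ran from −7.24 to −7.16 at 23 °C and from −8.61 to −7.89 on the cold arrays. Many members were that dim outside the cold necrotic leaf. Within it their median level was −3.39, against −1.61 for all probes well above background there. In the cold wild-type leaf 82 members were well above background on both arrays, 18 on 1 array and 45 on none. At 23 °C the counts were 60, 5 and 80. For a member below background on both arrays of a group, the fold is only an approximate lower bound on processed signals. It was taken from the dimmest signal that passed as above background, or from the probe's own signal if that is higher. The cut-off differs between spots: MUGEST2003_23lib_Contig3014_678 did not pass at −6.79 on a 23 °C array where another probe passed at −7.16. Folds given as at least a value are therefore approximate. By these bounds 23 of the 45 were still at least 4-fold higher than the wild-type leaf, and 40 of the 80 were at least 4-fold higher than at 23 °C. Members well above background on only 1 array of a group got no bound and keep their values as read. With bounds for those below background on both arrays, 105 of the 145 members kept both leaf rises at 4-fold or more. These counts may be too high. The median log2 difference was then 2.57 in place of 3.05 between the lines and 2.65 in place of 3.62 between temperatures, and the highest bound against 23 °C was 1174-fold.

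The largest leaf line difference among members measured on both wild-type leaf arrays was that of wheat0130Contig15092. It stood at 2.29 and 2.33 in the cold necrotic leaf, at −5.13 and −4.43 in the cold wild-type leaf, and at −8.41 and −7.18 at 23 °C, where neither array was well above background. In the shoot it stood at −7.97 and −8.97 in the wild-type line and −9.26 and −10.12 in the necrotic line, well above background on 1 of the 4 arrays. The cold necrotic leaf arrays stood far above the other 8, and the line difference in leaf was 136-fold. Against 23 °C it was at least 727-fold higher by the bound on processed signals, but its temperature difference of 10.10 on the log2 scale was 6.30 with normexp. wheat0130Contig12817 had the same order of groups, at 2.99 and 3.01 in the cold necrotic leaf against −3.38 and −3.46 in the wild-type leaf, an 85.4-fold difference. At 23 °C it was not well above background (−7.11 and −8.29), a difference of at least 1121-fold by that bound, and its log2 difference of 10.70 was 6.82 with normexp. In the shoot it was −6.79 and −6.86 in the wild-type and −7.82 and −8.27 in the necrotic line, the latter pair well above background on 1 array. The shoot line differences of both probes, −1.22 each, lie near background and were −0.034 and −0.23 with normexp.

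The largest 4 °C minus 23 °C differences among members measured at both temperatures were those of wheat0130Contig3968 and MUG005H12R990218. For wheat0130Contig3968 the level went from −5.25 and −5.20 at 23 °C to 4.36 and 4.34 in the cold necrotic leaf, a 764-fold difference. The cold wild-type leaf stood at 2.24 on both arrays, although that line has no leaf at 23 °C here to compare with. In cold leaf the lines differed 4.33-fold. Shoot levels were higher still, at 6.73 and 6.74 in the wild-type and 6.80 and 6.82 in the necrotic line. MUG005H12R990218 had the same order of groups, from −5.25 and −5.19 at 23 °C through 2.14 and 2.10 in the cold wild-type leaf to 4.28 and 4.32 in the cold necrotic leaf. Its temperature difference was 735-fold and its line difference 4.54-fold. The files do not say whether both probes read the same transcript.

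The members just inside and just outside each limit show how finely the rule divides. whgc2c09_153 entered with a leaf line difference of 2.01 and wheat0130Contig963 stayed out at 1.99, although the latter was 8.43 higher at 4 °C than at 23 °C on the log2 scale. On the temperature difference MUGEST2003_23lib_Contig24439_106 entered at 2.01 and whsh_allContig378 missed at 1.996. At the lower shoot limit MUGEST2003_23lib_Contig18562_1281 entered at −1.47, and whe18d21 missed by lying just past −1.5. At the upper limit wheat0130Contig3150 entered at 0.999 and rwhr5o11 missed at 1.01.

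The shoot condition sorted most probes with both leaf rises elsewhere. Of 392 such probes 145 (36.99%) fell between the shoot limits, whereas 84.7% of all probes well above background in the cold necrotic leaf did so. Another 191 had a necrotic shoot level 2-fold or more above the wild-type too, and 56 were lower there by 1.5 or more on the log2 scale. The median leaf line difference was 3.05 for the members, 2.96 for the 191 and 3.25 for the 56, and the median temperature difference was 3.62, 3.45 and 3.39. The differences between the 3 sets were not tested.

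The label given to the set speaks of the cold necrotic leaf only. For most but not all, the cold necrotic leaf was the highest group. The 2 cold necrotic leaf arrays were the 2 highest of all 10 for 82 members (56.6%), a place taken by 8.1% of probes well above background in that group. All 4 shoot arrays lay below both cold necrotic leaf arrays for the same number, 82, and that is true of 38.3% of these probes. For 52 members (35.9%), however, all 4 shoot arrays lay above both arrays of the cold necrotic leaf, against 43.7% of the probes, and for 11 the ranges overlapped. Because the rule raises the cold necrotic leaf by its choice, these shares are a description and were not tested. Shoot and leaf arrays differ in slide, scan and weeks of cold as well as in tissue, and these cannot be told apart.

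**Figure D2:**
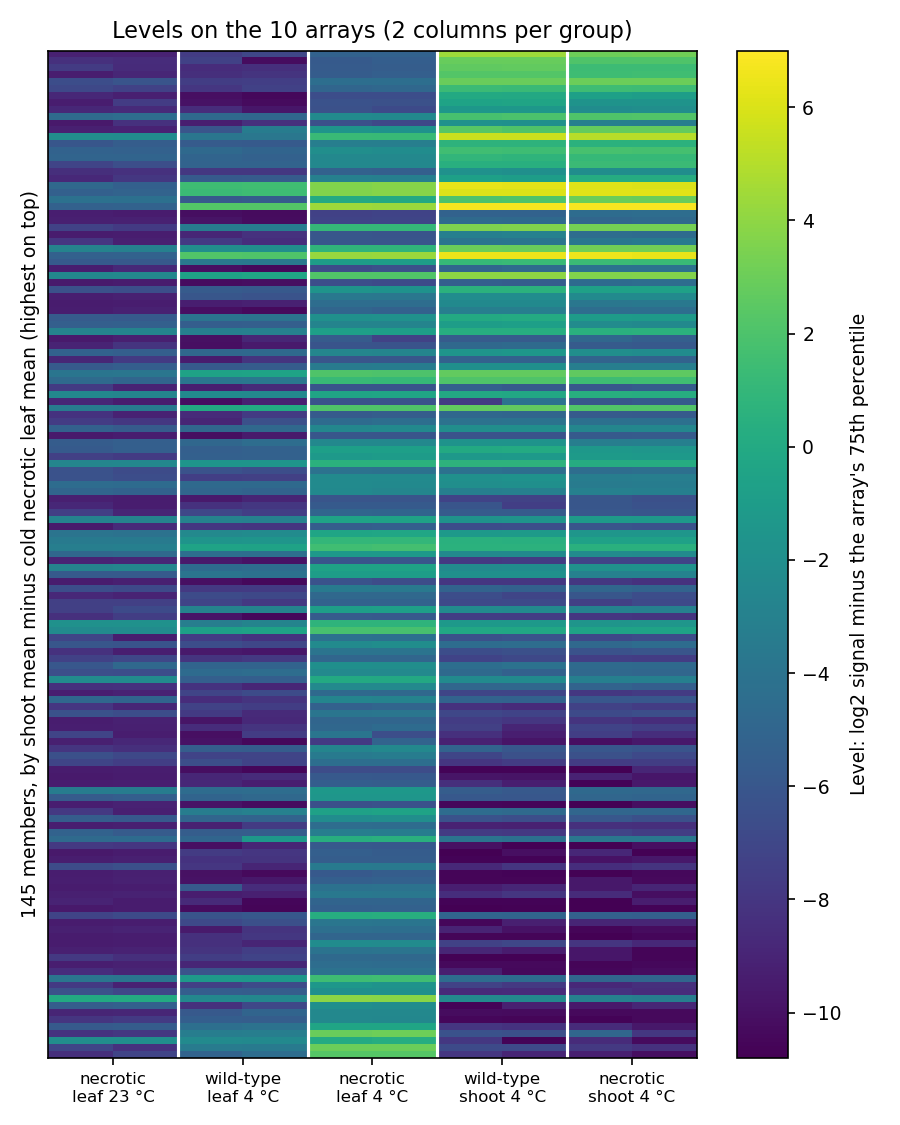
Each row is a member and each column an array, coloured by log2 signal minus the array's 75th percentile; rows run from the highest shoot mean relative to the cold necrotic leaf mean to the lowest. At the top the 4 shoot arrays on the right are brighter than the cold necrotic leaf, and at the bottom the cold necrotic leaf columns in the middle are the brightest of each row.

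The 82 members that were lower in shoot were lower by a median of 3.66 on the log2 scale, as the mean of the 4 shoot arrays minus the cold necrotic leaf mean was −3.66, with a range from −11.39 to −0.21. Of these 25 were below background on every shoot array and 42 were well above it on all 4. Their median leaf line difference was 3.59 and their median temperature difference 3.93. In the 52 members with higher shoot levels the shoot mean was 0.32 to 8.97 above the cold necrotic leaf, with a median of 2.36, at least 4-fold for 32 and at least 16-fold for 13. All 52 were well above background on all 4 shoot arrays. Their median leaf line difference was 2.73 and their median temperature difference 3.08. The wild-type shoot shared these high levels, since the rule keeps the lines close in shoot.

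For 14 members no array other than the 2 of the cold necrotic leaf was well above background. The 2 with the highest bounds, chosen after their values were seen, are MUGEST2003_23lib_Contig15418_373 and MUGEST2003_23lib_Contig6874_596. The first stood at −3.68 and −3.71 in the cold necrotic leaf, against −9.39 and −9.24 in the cold wild-type leaf and −9.25 and −9.11 at 23 °C. In shoot it read −8.50, −7.99, −8.60 and −10.16, also not well above background. Its cold necrotic leaf level was at least 20.3-fold that of the wild-type leaf and at least 11.3-fold that at 23 °C. MUGEST2003_23lib_Contig6874_596 stood at −4.33 and −4.37, at least 12.5-fold above the wild-type leaf and at least 7.19-fold above 23 °C.

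At the other end were members that were far higher in shoot. The 2 with the largest shoot excess, also chosen after their values were seen, were wheat0130Contig11423 and wheat0130Contig8091. wheat0130Contig11423 stood at 4.42 and 4.41 in the wild-type and 3.10 and 3.11 in the necrotic shoot, but at −5.21 on both cold necrotic leaf arrays. It was lower still in the cold wild-type leaf, at −7.67 and −7.01, only the second of which was well above background, and it was not well above background at 23 °C (−9.16 and −9.06). The shoot mean was 502-fold above the cold necrotic leaf, whereas the leaf line difference was 4.37-fold. For wheat0130Contig8091 the shoot mean was 278-fold above the cold necrotic leaf. Its cold wild-type leaf arrays read −7.39 and −10.18, 1 of which was well above background, and its leaf line difference of 8.84-fold rests on that pair. Such probes are raised in the cold necrotic leaf relative to the other leaves only.

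**Figure D3:**
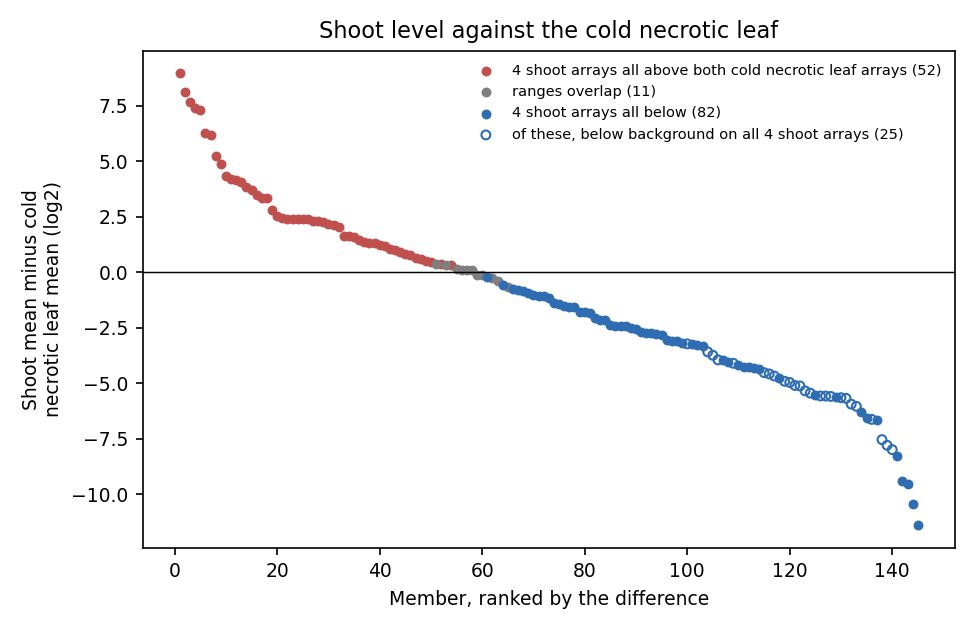
Members are ranked on the x axis by the mean of the 4 shoot arrays minus the mean of the cold necrotic leaf, shown in log2 units on the y axis; open circles are members below background on all 4 shoot arrays. The values run from 8.97 to −11.39, with 52 members whose shoot arrays are all above the leaf and 82 whose shoot arrays are all below.

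Inside the limits the shoot line difference, necrotic minus wild-type, had a median of −0.12 and ran from −1.47 to 0.999. The limits reach further below 0 than above it. The difference was above 0 for 61 members and below 0 for 84, and 75 were within 0.5 of 0. Both necrotic shoot arrays lay above both wild-type arrays for 44 members (42.6% of the probes well above background in the cold necrotic leaf did so) and below both for 69 (45.8% did so). For the remaining 32 the shoot lines overlapped. Little difference in shoot thus meant only a difference within the limits. The arrays of the 2 lines could still lie apart, as they did for most probes well above background in the cold necrotic leaf. The rule used these shoot values, so the counts are a description.

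The highest shoot line differences among members measured on all 4 shoot arrays were those of wheat0130Contig3150 and wheat0130Contig15624. wheat0130Contig15624 stood at 0.19 and 0.21 in the necrotic shoot against −0.65 and −0.86 in the wild-type shoot, a 1.93-fold difference. In cold leaf it stood at −3.05 and −3.14 against −5.76 and −5.69, a 6.20-fold difference, so the necrotic line was higher in both tissues. wheat0130Contig3150 was dim throughout, at −6.06 and −6.45 in the necrotic and −7.19 and −7.31 in the wild-type shoot, and it was not well above background in the cold wild-type leaf. Its leaf difference was at least 3.80-fold by the bound on processed signals. Over the alternatives its log2 leaf line difference ran from 0.54 to 3.40, so that bound does not hold under all of them. With normexp its temperature difference turned from 3.19 to −0.38.

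The lowest shoot line differences were those of MUGEST2003_23lib_Contig18562_1281 and MUGEST2003_23lib_Contig4491_48. MUGEST2003_23lib_Contig18562_1281 was 2.77-fold lower in the necrotic shoot, at −3.15 and −3.12 against −1.67 and −1.66. In cold leaf the same probe was 4.48-fold higher in the necrotic line, at −2.51 on both arrays against −4.89 and −4.46. MUGEST2003_23lib_Contig4491_48 was 2.76-fold lower in the necrotic shoot and 6.34-fold higher in the necrotic leaf. In both probes the arrays of the lines did not overlap in either tissue. ncbi_gi_32128798_1521 was intermediate, 1.497-fold higher in the necrotic shoot, with a leaf difference of at least 3.75-fold by the bound on processed signals. Over the alternatives its log2 leaf line difference ran from 0.42 to 3.81, so that bound does not hold under all of them. Its temperature difference of 2.82 turned to −0.52 with normexp.

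The cold wild-type leaf and the necrotic leaf at 23 °C were also set against each other, in a limma fit over 33047 probes. For a member this difference is the temperature difference minus the leaf line difference, both of which chose the set. The members' counts are therefore a description and support nothing, and no p-value is given for a member. Of the 145 members 47 were at least 2-fold higher in the cold wild-type leaf than in the necrotic leaf at 23 °C with an adjusted p under 0.05, against 11.4% of all probes tested. Another 20 were at least 2-fold lower (18% of all probes), and 78 members were not called at that size. The median difference was 0.36 for the members and −0.17 for all probes. The order of these counts depends on the background correction: with normexp 12 members were higher and 32 lower, and their median was −0.87, against −0.48 for all probes. With quantile normalization the counts were 63 and 11. Of the members called, 70.1% were higher. That share was 27.3% under normexp, 85.1% under quantile normalization and 74.3% when arrays were scaled to their medians. Of all probes called it was 38.7%, and 22.5%, 49.8% and 49.2% under these 3 settings. Line, temperature, age, slide and scan all differ between these groups and cannot be told apart.

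Detection moved with these counts. Over all probes below background on both arrays of a group, the median level was −9.04 at 23 °C and −9.86 in the cold wild-type leaf, and the part of this shift in the counts was not tested. Of the 43 members well above background on no array of either group, 7 were called lower and 1 higher, with a median of −0.44. Such calls compare background signals, and of all 2552 probes of that kind 21.2% were called lower and 0.862% higher, with a median of −0.81. Of the 23 detected on both wild-type arrays and on neither at 23 °C, 19 were called higher and 0 lower, against 68.1% and 0% of all 1030 such probes, a direction that their detection all but fixes. The firmest values are those of the 57 members well above background on both arrays of both groups. Among these 20 were higher and 9 lower, with a median of 0.45, where 10.3% and 16.7% of the 27544 such probes were. With normexp these 57 gave 11 higher and 9 lower, and their median turned to −0.43.

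**Figure D4:**
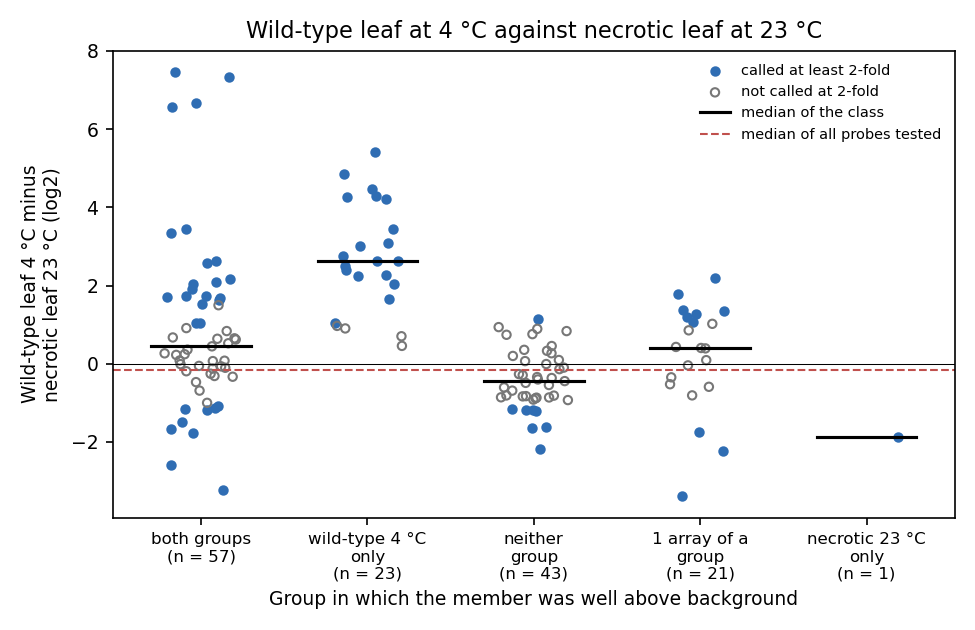
The wild-type leaf at 4 °C minus the necrotic leaf at 23 °C, in log2 units, for each member, in columns by the groups whose 2 arrays both detected it; filled points were called at least 2-fold and black bars are medians. The 57 members measured in both groups spread from −3.23 to 7.46 around a median of 0.45. The 43 measured in neither have a median of −0.44, below the dashed median of all probes at −0.17. All tested probes measured in neither group have a median of −0.81.

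The highest of these differences formed a small cluster. wheat0130Contig3968 was 176-fold higher in the cold wild-type leaf than in the necrotic leaf at 23 °C (log2 difference 7.46, SE 0.038), and over all alternatives the log2 difference ran from 5.74 to 7.62. MUG005H12R990218 was 162-fold higher (7.34, SE 0.062; 5.69 to 7.497 over the alternatives). wheat0130Contig9653 and MUGEST2003_23lib_Contig10592_200, noted after their values were seen, followed at 6.66 and 6.57, and the fifth highest, wheat0130Contig2354, stood apart at 5.41. In the 4 probes the shoot line difference lay between −0.22 and 0.15. Their necrotic leaf was 8.73 to 9.58 higher at 4 °C than at 23 °C, which follows from the ranked difference and the leaf line difference. Their leaf line differences of 2.11 to 2.28 put them just above the threshold. All 4 thus had high levels at 4 °C in both lines, with the cold necrotic leaf between the cold wild-type leaf and the shoot. Whether the wild-type leaf was lower at 23 °C cannot be said, as it was not analysed here.

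In the opposite direction whsh_allContig217 stood at −2.21 and −2.22 at 23 °C and at −5.41 and −5.46 in the cold wild-type leaf, 9.35-fold lower (log2 difference −3.23, SE 0.040; −3.25 to −2.27 over the alternatives). In the cold necrotic leaf it stood at 0.00 and −0.03. whsh_allContig94 was 5.99-fold lower in the cold wild-type leaf than at 23 °C (−2.58, SE 0.083; −2.62 to −2.28 over the alternatives), at −2.50 and −2.53 against 0.03 and 0.11. It rose to 3.89 and 3.83 in the cold necrotic leaf, an 83-fold line difference, and its shoot levels lay at −2.41 and −2.49 in the wild-type and −3.01 and −3.25 in the necrotic line. For these 2 probes the warm necrotic leaf lay between the cold leaves of the 2 lines.

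Some clones and contigs carry more than 1 probe, which gives a second reading of the same named sequence. Among the members 17 have such a partner, from 14 clones or contigs, in which names beginning with wh and rwh were taken as the same clone. In 3 of the 14 both probes were members. For whvs10m06 the 2 probes had leaf line differences of 2.80 and 2.65 and shoot line differences of 0.28 and 0.27, with shoot levels above the cold necrotic leaf in both. For whvd13c21 the leaf line differences were 3.15 and 3.696 and the shoot differences −0.44 and −0.45. For whsh_allContig94 the leaf line difference was 6.37. For its partner whsh_allContig94_2, below background in both other leaf groups, the bounds were 3.63-fold between the lines and 2.02-fold against 23 °C. These 2 probes differed in level and shoot position. Their cold necrotic leaf means were 3.86 and −6.18, and the shoot mean minus that leaf mean was −6.65 and 0.50.

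The other 11 partners are not members. On 7 of them the cold necrotic leaf was well above background on both arrays, and for 6 both leaf differences were above 0, of which 2 were at or over 2 on both. These 2, rwhf22p05 (2.04 and 2.44) and rwhsd4l14_646 (2.84 and 9.41, line and temperature), missed the set by shoot line differences of 1.75 and 2.66. rwhr3p16, at 1.86 and 5.44, missed by the leaf line and the shoot. whgc10c14_29 showed 1.03 and 1.24 where the member of the same clone, rwhgc10c14_490, showed 5.597 between the lines, with 1 wild-type array well above background, and at least 52-fold against 23 °C. The exception among the measured partners was whkv15a20_61, at −0.03 and −0.62, whereas rwhkv15a20_635 was at least 11.8-fold higher than the wild-type leaf and at least 6.54-fold higher than at 23 °C.

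The remaining 4 partners were below background on both arrays of the cold necrotic leaf, and 3 of them belong to pairs marked p and m in their names, of which the array holds 1666 probes. In rwhhg20a05 and rwhkp18k04 the m probe was the member, with a leaf line difference of at least 49.96-fold by the bound in the first and a log2 value of 2.78 in the second. In MUGEST2003_23lib_Contig3947 the p probe was the member, with a bound of at least 2.67-fold. The opposite probes were not detected in the cold necrotic leaf, so they have no leaf difference. The files do not say what p and m stand for, so these 3 pairs are given as measured.

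**Figure D5:**
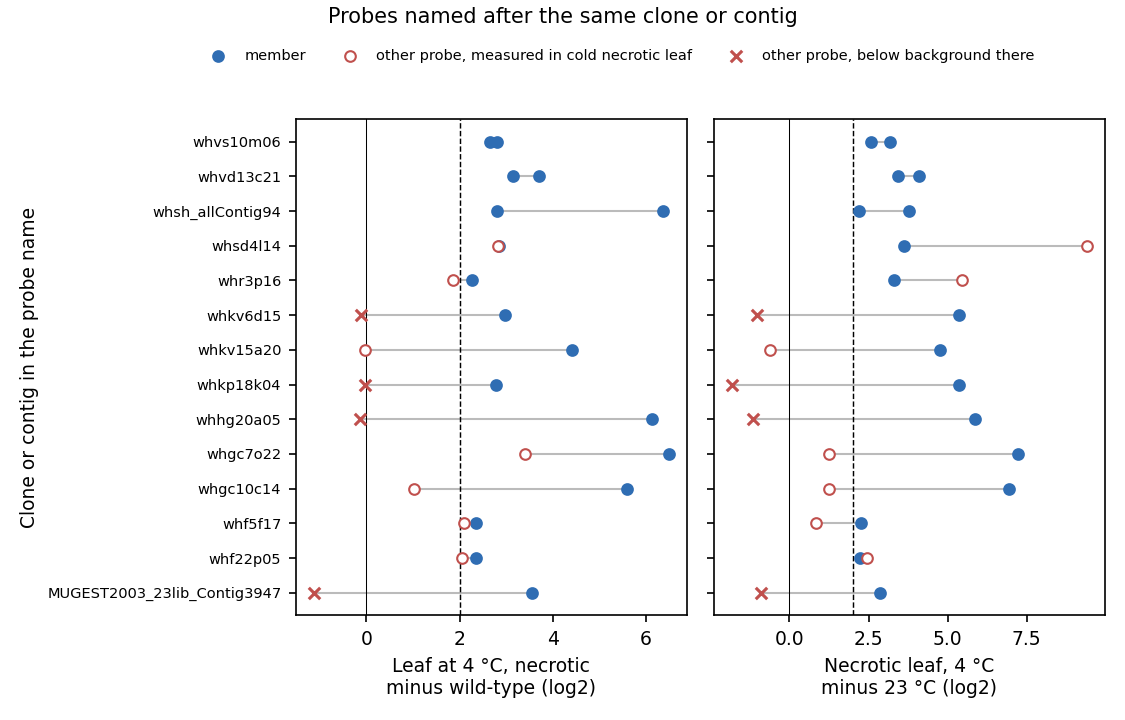
Each line is a clone or contig named by at least 1 member and measured by 2 probes, with the leaf line difference on the left and the temperature difference on the right, in log2 units with signals below background taken as read; filled points are members, open points other probes measured in the cold necrotic leaf and crosses other probes below background there. In 3 of the 14 both probes are members, and the 4 crosses lie between −1.82 and 0.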

How the data were processed

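The authors deposited for each sample an Agilent Feature Extraction output whose spot intensity is linear, from version 10.5.1.1 per the file headers (9.5 per the submitters' processing notes). Background subtraction and spatial detrending within each array have statistics per the file headers; no scaling between arrays is recorded there. The deposited value table holds the same intensity at all 39243 features (largest difference 0). Having 2 arrays in a group limits the precision.

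Control spots were left out. A level was log2 of the processed signal over the array's 75th percentile, and the rule used every spot as deposited. The test used limma 3.58.1 in R 4.3.3 (figures with matplotlib 3.10.9 in Python 3.11.15) with 1 mean per group over 10 arrays, outlier spots missing, and only probes that passed the background flag throughout 1 or more groups. P-values were two-sided, adjusted by Benjamini-Hochberg over all probes; calls needed an adjusted p under 0.05 and a 2-fold difference. Of the members 2 had a flagged spot. The fit was tested on simulated data with independent noise whose spread did not depend on level, so this does not speak to background signals. Members and lists were chosen with earlier results of these data known. Probes were named by fixed rules on size (2 highest and 2 lowest per difference, those at the limits, and a gi number), except where stated. Alternatives were normexp, quantile and median scaling, filters, other limits, the replicate number as a block and leaving out arrays.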

Additional observations from a re-analysis of the deposited data

Results flagged for a closer look

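In 56 members well above background on all 4 shoot arrays, every necrotic array was above every wild-type array in cold leaf and below every wild-type array in shoot, so the line difference had opposite signs in the 2 tissues. The rule all but fixes the direction in leaf, and its shoot limits of −1.5 and 1 leave more room for a lower necrotic shoot. Of all probes well above background in the cold necrotic leaf and all 4 shoot arrays, 46.5% had the necrotic shoot wholly below the wild-type. That share is not held to the shoot limits. The members counted here are 56 of 105 so measured. Among the probes named above these were whsh_allContig217, whsh_allContig94, MUGEST2003_23lib_Contig18562_1281 and MUGEST2003_23lib_Contig4491_48, with shoot line differences of −0.83, −0.68, −1.47 and −1.47. The difference between the tissues was not tested, since the rule that chose the members used both line differences.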

How the results depend on the processing

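The rule found 46 probes with normexp on spot medians (34 of them members), 140 after quantile normalization (124) and 148 after median scaling (138). It found 251 and 90 with leaf thresholds of 1.5 and 2.5, 143 without flagged spots, and 55 members were well above background on all 10 arrays; leaving out 1 array gave 137 to 165. Normexp was run on spot medians with an offset of 50 added to every signal, an alternative chosen after seeing the data. The version on spot means was not run. In the cold wild-type minus 23 °C necrotic leaf difference normexp gave 1980 higher probes in place of 3755, and 12 higher and 32 lower members in place of 47 and 20. Lower members numbered 11 with quantile normalization and 12 with only the 2 groups in the fit, which tests 85 members. Members measured on all 10 arrays gave 19 and 9, and those measured in both groups, a choice made after seeing the data, 20 and 9. Other alternatives stayed within 1.5 times; without 1 array 43 to 52 members were higher and 18 to 24 lower. With the replicate number as a block 46 members were higher and 20 lower. Same-numbered samples deviated together at r = −0.01 in these groups, so the numbers are not taken to pair them. In that difference normexp turned the sign for wheat0130Contig15092 (−0.013), wheat0130Contig15624 (−0.46), MUGEST2003_23lib_Contig18562_1281 (−0.43) and wheat0130Contig3150 (−0.93), and quantile normalization for MUGEST2003_23lib_Contig4491_48 (0.22). Small differences changed sign under other alternatives too, as for wheat0130Contig3150 without wild-type leaf replicate 2 and for MUGEST2003_23lib_Contig4491_48 with median scaling. Normexp also turned the temperature difference of wheat0130Contig3150 (−0.38) and ncbi_gi_32128798_1521 (−0.52). The counts of 52 and 82 members by shoot position ran from 43 to 53 and from 82 to 89. The offset of normexp changes dim signals most on the log2 scale, and its part in these shifts was not tested. The cause of the other shifts was not tested either.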
